A study of Mus musculus with 2 samples.

Results

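Interferon-stimulated genes are genes that a cell switches on after an interferon, a cytokine of antiviral defence, has reached it. A list of 33 such genes was followed by symbol in dissociated mouse aorta with single-cell RNA sequencing, and 31 of them were found among the 32285 features counted; Mx1 and Mx2 were not analysed here. By role, the 31 comprised 3 sensors of viral nucleic acid (Ifih1, Dhx58, Zbp1), 4 transcription factors (Irf1, Irf7, Irf9, Stat2) and 4 Ifit proteins that block translation of foreign RNA. They also held 7 members of the Oas family or enzymes of nucleotides (the Oas group, Rsad2, Cmpk2). Antiviral proteins of membranes, vesicles or ubiquitin ligation numbered 5 (Bst2, Gbp2, Gbp3, Rtp4, Trim30a). The rest were 3 members of the Isg15 conjugation system (Isg15, Usp18, Herc6) and 5 others (Ifi44, Ifi35, Parp14, Xaf1, Ifi27l2a). In fibroblasts and macrophages most of these genes had higher levels in the library of mice with endothelial Cept1 overexpression, and in endothelial cells as a whole they had not. The summed level of 11 strongly inducible genes was also higher in that library's fibroblasts and macrophages. Most of that net difference lay in cells chosen by the same 11 genes, 1.43% of that library's fibroblasts and 4.92% of its macrophages. Single genes also differed in the other cells, such as Ifit1 in fibroblasts and Rsad2 in macrophages. Isg15 and Irf1 were lower in that library in all 3 classes.

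Type I interferons bind a receptor on the cell surface, whose kinases phosphorylate Stat2. Stat2 acts with Irf9 in a complex that binds the interferon-stimulated response element (ISRE) in promoters, and the newly made Irf7 and Stat2 enlarge the response. Interferon gamma, made by T and NK cells, acts at a different element, the gamma-activated site (GAS), and Irf1 is among its direct targets. Single cells are known to respond unevenly, so that a tissue average can come from few cells.

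Whole aorta, arch to bifurcation, of male mice on a C57BL6 background was captured with 10x Genomics 3′ v3 chemistry in 1 library per group, in which each captured RNA molecule is counted by its unique molecular identifier (UMI). The Cept1fl/fl Cre+ group carried the Cept1fl/fl genotype and VE-cadherin-Cre-ERT2, a Cre recombinase under a promoter of endothelial cells that tamoxifen activates; it is labelled as endothelial overexpression of Cept1, an enzyme of phospholipid synthesis. The Cept1fl/fl Cre- group shared the Cept1fl/fl genotype and had no Cre. The tamoxifen course was 1 mg per injection on 5 days, begun at 8 weeks or later and followed by 5 days of recovery, while the age label gives 6 to 8 weeks; whether Cre- mice received it is not stated for them separately. Tissue is given as n = 3 per condition, and no source used here says whether those samples were pooled. With 1 library per group, differences have no replicate check, no test was run, and every interval below is a 95% interval that covers counting error only.

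The Cre+ library held 95735360 UMIs over 17728 barcodes and the Cre- library 88220524 over 14349, and 74 barcode sequences occurred in both. The filters kept 10635 Cre+ and 8546 Cre- cells, whose median depths were 6301 and 6685 UMIs. Each cell was assigned to the class of which it showed most of 8 marker genes, which placed 10019 cells (94.2%) and 7636 cells (89.4%); 452 and 527 of these led by exactly the 2 markers required, and 287 and 475 cells missed that lead by 1. Endothelial cells numbered 1483 and 747, fibroblasts 5386 and 3992, macrophages 1686 and 771, smooth muscle cells 686 and 607, T or NK cells 269 and 665, and B cells 205 and 589. Endothelial cells were further divided by markers into arterial (804 and 305), capillary (329 and 219), venous (91 and 82) and lymphatic (223 and 112) cells. Endothelial markers summed to 7737 and 7701 CPM (a gene's UMIs scaled to a common total of UMIs per class and library) in endothelial cells, against 86.4 and 117 CPM in fibroblasts. Cept1 itself stood at 115.8 CPM in endothelial cells of the Cre+ library (1431 UMIs) and at 75.9 CPM in those of the Cre- library (561 UMIs), a log2 ratio of 0.61 (0.47 to 0.75).

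Ratios below are log2 of CPM in the Cre+ library over the Cre- library, and a gene counts as measured in a class with at least 20 UMIs over both libraries. In endothelial cells 15 of 30 measured members were higher in Cre+, where 47.4% of all measured genes were, and the median ratio was 0.0039 against -0.015 for all genes. In fibroblasts 26 of 30 were higher (41.4% of all genes), with a median of 0.23 against -0.050. In macrophages 28 of 31 were higher (53.4% of all genes), with a median of 0.41 against 0.019. The endothelial share was near that of all genes, and the fibroblast and macrophage shares were above it. Smooth muscle cells had 15 of 24 higher (47.2% of all genes; median 0.11), T or NK cells 23 of 26 (58%; 0.42), B cells 11 of 23 (43.7%; -0.0016), neutrophils 19 of 22 (46.7%; 0.85), and monocyte or dendritic cells 15 of 23 (50.5%; 0.19). A ratio of at least 1.5-fold upward was reached by 1 endothelial member (4.67% of all genes), 5 in fibroblasts (3.73%) and 12 in macrophages (7.75%). A ratio of at least 1.5-fold downward was reached by 4 in endothelial cells (7.61%), 1 in fibroblasts (7.51%) and 1 in macrophages (5.38%). In smooth muscle cells 5 members were at least 1.5-fold higher (5.57% of all genes) and 2 lower (5.52%), in T or NK cells 9 (14.9%) and 1 (7.4%), in B cells 2 (9.08%) and 4 (15%), in neutrophils 15 (19%) and 1 (25.6%), and in monocyte or dendritic cells 7 (12.1%) and 5 (12.6%). The values of the B and of the monocyte or dendritic class moved with few cells, as given below. Over all assigned cells 29 of 31 members were higher (43.5% of all genes), 9 of them at least 1.5-fold (6.25%) and 1 was at least 1.5-fold lower (10.4%), a reading that moves with the different class shares of the libraries.

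**Figure D1:**
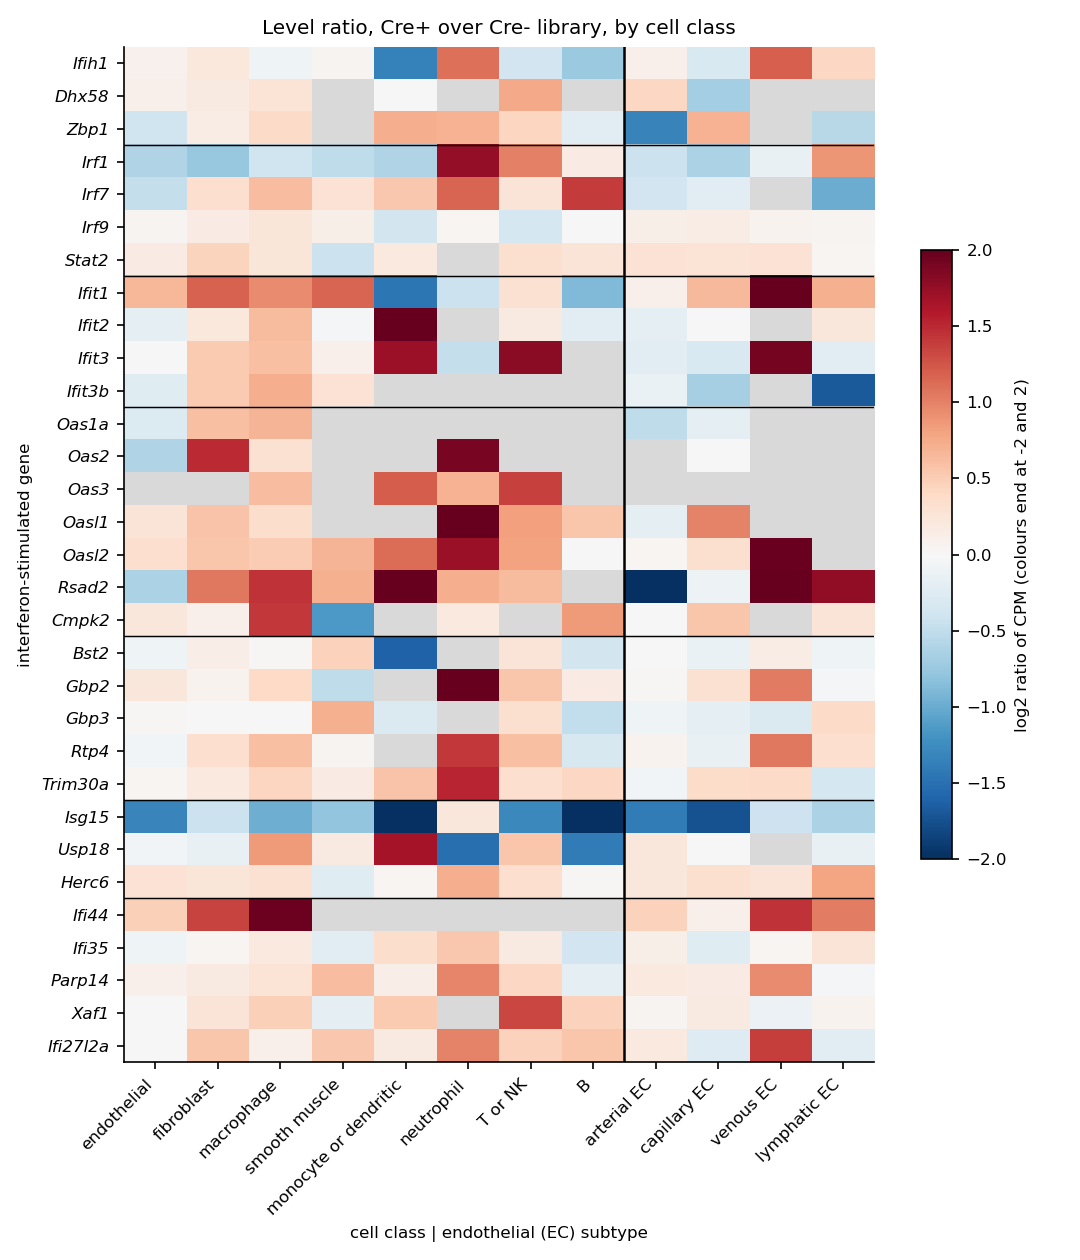
Log2 ratio of CPM, Cre+ over Cre- library, for 31 genes (rows, lines between roles) in 8 cell classes and 4 endothelial subtypes (columns); red is higher in Cre+, blue lower, grey is fewer than 20 UMIs, and colours end at -2 and 2, where a gene with 0 UMIs in a library is also drawn. Isg15 is blue in 11 of 12 columns, while most rows are red in fibroblasts, macrophages and neutrophils.

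Among the sensors, Ifih1, the cytosolic detector of long double-stranded RNA, was at 54.6 CPM in Cre+ and 51.3 CPM in Cre- endothelial cells, 27.9 and 24.1 CPM in fibroblasts, and 106.8 and 113 CPM in macrophages. Its ratio of 0.21 (0.072 to 0.36) in fibroblasts was the one of the 3 whose interval left out 0. Zbp1, a sensor of Z-form nucleic acid that can start cell death, was at 27.3 CPM in Cre+ and 21.0 CPM in Cre- macrophages, a ratio of 0.38 (0.12 to 0.64). Dhx58, which tunes Ifih1, had intervals that held 0 in all 3 classes.

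The transcription factors split. Irf1, a factor induced early and also by inflammatory signals, was at 136.8 CPM in Cre+ and 230.9 CPM in Cre- fibroblasts (4388 and 7123 UMIs), a ratio of -0.75 (-0.81 to -0.70). It was at 87.2 and 132.5 CPM in endothelial cells (-0.60, -0.73 to -0.48) and at 215.8 and 284.1 CPM in macrophages (-0.40, -0.47 to -0.32). It was therefore lower in Cre+ in the 3 large classes, but higher in neutrophils (255.5 CPM in Cre+ and 75.4 CPM in Cre-) and in T or NK cells (125.5 and 62.3 CPM). Irf7, the factor that amplifies type I interferon production, was at 16.9 and 23.6 CPM in endothelial cells (-0.48, -0.77 to -0.18), at 13.8 and 10.9 CPM in fibroblasts (0.34, 0.14 to 0.55) and at 32.97 and 21.5 CPM in macrophages (0.62, 0.36 to 0.87). Stat2, the partner of Irf9 in the ISRE complex, was at 32.2 and 23.8 CPM in fibroblasts (0.44, 0.30 to 0.58), and Irf9 was between 0.054 and 0.24 in the 3 classes.

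All 4 Ifit genes had higher levels in Cre+ fibroblasts and macrophages. Ifit1, whose protein binds the unmethylated cap of foreign RNA, was at 40.2 CPM in Cre+ and 17.7 CPM in Cre- fibroblasts (1290 and 545 UMIs), a ratio of 1.19 (1.04 to 1.33). It was at 35.1 and 18.2 CPM in macrophages (0.95, 0.68 to 1.22) and at 47.7 and 30.0 CPM in endothelial cells (0.67, 0.44 to 0.90), where it was the single member at least 1.5-fold higher. All 4 Ifit genes were at least 1.5-fold higher in Cre+ macrophages. In endothelial cells Ifit2, Ifit3 and Ifit3b stood at -0.19, 0.0087 and -0.24, each with an interval that held 0.

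Among the enzymes of RNA and nucleotides, Rsad2, which makes a chain-terminating nucleotide, was at 58.0 CPM in Cre+ and 21.3 CPM in Cre- macrophages (852 and 173 UMIs; 1.45, 1.21 to 1.69) and at 8.33 and 3.99 CPM in fibroblasts (1.06, 0.75 to 1.38). In endothelial cells it was at 51.8 CPM in Cre+ and 80.7 CPM in Cre- (-0.64, -0.80 to -0.48). Rsad2 thus had opposite directions in macrophages and in endothelial cells pooled over subtypes. In capillary cells, which it marked in both libraries, its counting interval included no difference (see the subtypes below). Cmpk2, its neighbour on chromosome 12, which supplies the nucleotide that Rsad2 converts, was at 16.01 and 6.02 CPM in macrophages (1.41, 0.96 to 1.89). The 2'-5' oligoadenylate synthetases, which activate RNase L, were all higher in Cre+ macrophages, with ratios of 0.68 for Oas1a, 0.31 for Oas2 and 0.61 for Oas3. Oas2 in fibroblasts rested on 70 and 24 UMIs, a ratio of 1.49 (0.80 to 2.22).

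The antiviral proteins of membranes and vesicles differed less. Bst2, the tether that holds virions at the cell surface, was at 331.7 CPM in Cre+ and 352.0 CPM in Cre- endothelial cells (-0.086), 102.5 and 93.1 CPM in fibroblasts (0.14) and 187.7 and 184.5 CPM in macrophages (0.025). Gbp2, a guanylate-binding GTPase of pathogen vacuoles, was at 151.7 and 129.7 CPM in endothelial cells (0.23, 0.11 to 0.34) and at 50.5 and 38.1 CPM in macrophages (0.41, 0.21 to 0.60). Rtp4, an interferon-induced chaperone of receptors that also inhibits flaviviruses, and Trim30a, a TRIM ubiquitin ligase, were at 0.61 and 0.43 in macrophages.

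Isg15, the ubiquitin-like protein that is attached to other proteins, was at 22.2 CPM in Cre+ and 55.1 CPM in Cre- endothelial cells (274 and 407 UMIs), a ratio of -1.31 (-1.54 to -1.09). It was at 17.9 and 24.0 CPM in fibroblasts (-0.43, -0.59 to -0.27) and at 20.03 and 39.5 CPM in macrophages (-0.98, -1.21 to -0.75). It was detected in 11.5% of Cre+ and 21.6% of Cre- endothelial cells, 5.44% and 10.4% of fibroblasts, and 9.61% and 15.7% of macrophages. No class measured here is known to lack Isg15, so no background share from free RNA was set. Usp18, the protease that removes Isg15 and damps the receptor, was at 17.2 and 9.59 CPM in macrophages (0.85, 0.47 to 1.23), a direction opposite to that of Isg15 there. Herc6, the ligase that attaches Isg15 in mice, was higher in Cre+ in all 3 classes, at 0.28 in endothelial cells, 0.25 in fibroblasts and 0.31 in macrophages. In endothelial cells and fibroblasts Usp18 was at -0.058 and -0.15, with intervals that held 0.

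Of the remaining members, Ifi27l2a, a small mitochondrial or nuclear-envelope protein, was at 389.4 CPM in Cre+ and 264.2 CPM in Cre- fibroblasts (12487 and 8151 UMIs; 0.56, 0.52 to 0.60), at 152.7 and 152.8 CPM in endothelial cells and at 886.0 and 822.7 CPM in macrophages. It was detected in 37.8% of Cre+ and 32.2% of Cre- fibroblasts. Ifi44 was an endothelial member in level, at 31.7 and 22.7 CPM there (0.48, 0.22 to 0.75) against at most 2.38 CPM in fibroblasts and macrophages. Parp14, a mono-ADP-ribosyltransferase, and Xaf1, a pro-apoptotic partner of XIAP, were at 0.27 and 0.48 in macrophages, and Ifi35 was within 0.20 of 0 in all 3 classes.

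**Figure D2:**
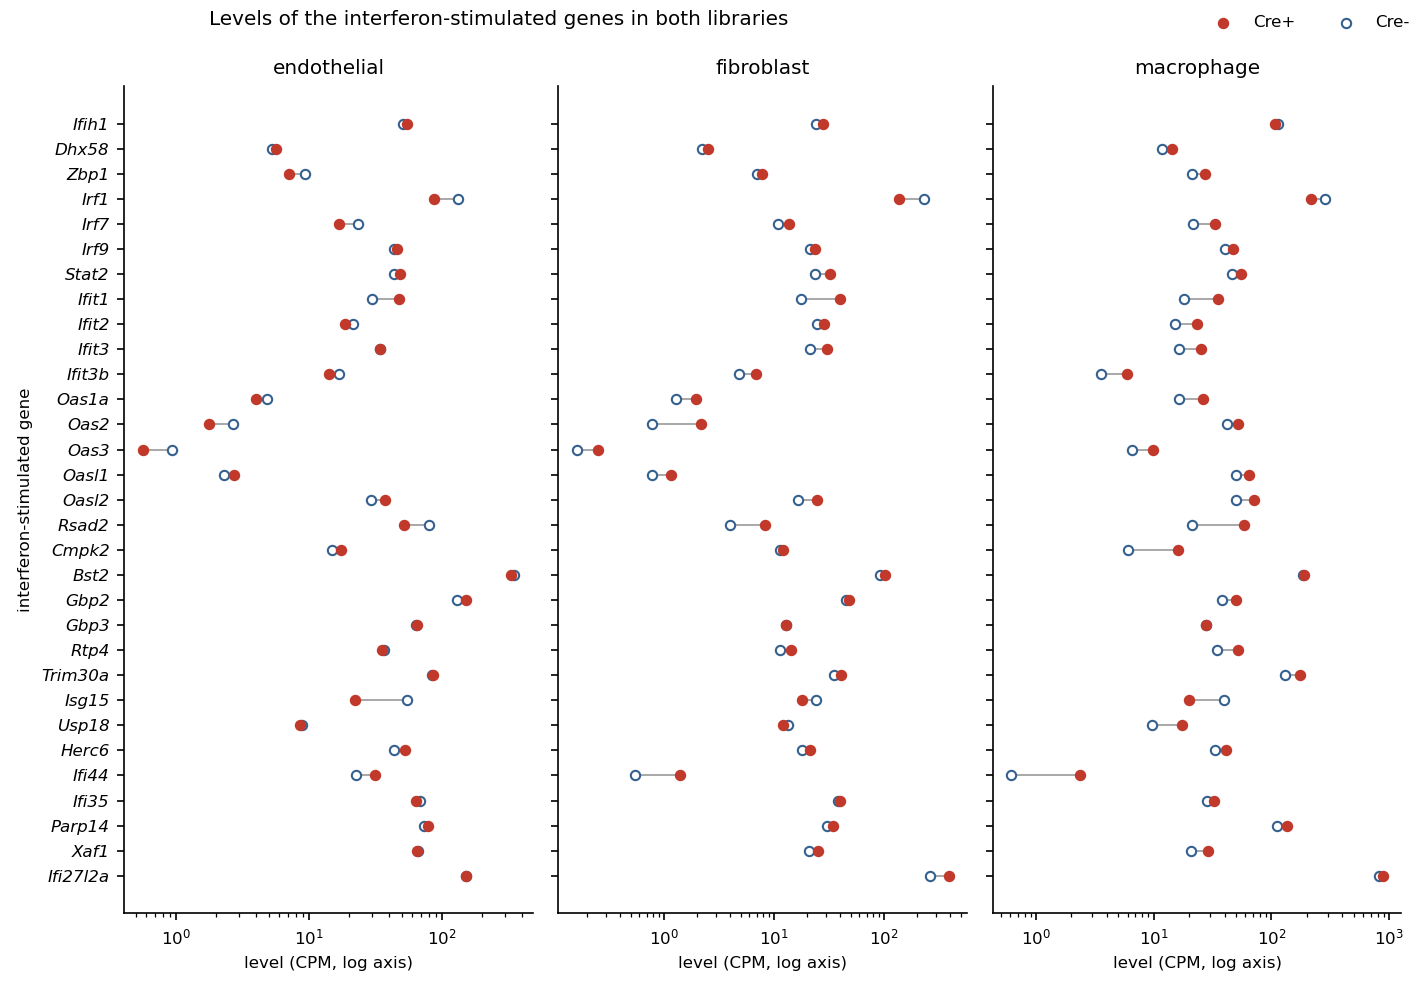
Level in CPM (log axis) of each of the 31 genes in endothelial cells, fibroblasts and macrophages; filled red points are the Cre+ library and open blue points the Cre- library, 1 library each, joined by a line. Ifit1 lies to the right in Cre+ in all 3 panels and Isg15 and Irf1 lie to the left.

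Promoters are shown for 4 genes named above. Isg15, Ifit1 and Rsad2 carry ISRE letters, and the Irf1 window carries GAS letters. Each window runs from 250 bases before to 50 bases after the RefSeq start (GRCm38.p6), 5′ to 3′ on the gene's strand, and capitals mark the ISRE core, GAAA repeated after any 2 bases, on either strand or, in Irf1, the GAS letters TTCNNNGAA (which reads the same on both strands). The windows are chr4:156200769-156201068 (minus strand, Isg15), chr19:34640639-34640938 (plus, Ifit1), chr12:26456403-26456702 (minus, Rsad2) and chr11:53769764-53770063 (plus, Irf1).
Isg15: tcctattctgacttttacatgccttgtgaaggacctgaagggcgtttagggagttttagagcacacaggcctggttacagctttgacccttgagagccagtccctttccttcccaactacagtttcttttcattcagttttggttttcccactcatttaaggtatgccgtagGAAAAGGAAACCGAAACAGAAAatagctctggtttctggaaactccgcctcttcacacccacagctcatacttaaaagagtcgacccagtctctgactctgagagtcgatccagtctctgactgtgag
Ifit1: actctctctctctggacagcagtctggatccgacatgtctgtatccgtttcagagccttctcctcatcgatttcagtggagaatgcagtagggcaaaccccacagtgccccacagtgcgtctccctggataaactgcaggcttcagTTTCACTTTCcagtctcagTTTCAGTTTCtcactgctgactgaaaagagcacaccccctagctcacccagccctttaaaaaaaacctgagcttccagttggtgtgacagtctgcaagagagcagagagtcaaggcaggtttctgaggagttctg
Rsad2: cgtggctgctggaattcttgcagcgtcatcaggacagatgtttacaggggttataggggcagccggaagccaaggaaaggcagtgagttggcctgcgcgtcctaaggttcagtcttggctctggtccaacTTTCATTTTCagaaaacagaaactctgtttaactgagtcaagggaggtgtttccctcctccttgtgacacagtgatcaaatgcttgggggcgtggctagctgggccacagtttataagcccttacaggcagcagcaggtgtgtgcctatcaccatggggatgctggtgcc
Irf1: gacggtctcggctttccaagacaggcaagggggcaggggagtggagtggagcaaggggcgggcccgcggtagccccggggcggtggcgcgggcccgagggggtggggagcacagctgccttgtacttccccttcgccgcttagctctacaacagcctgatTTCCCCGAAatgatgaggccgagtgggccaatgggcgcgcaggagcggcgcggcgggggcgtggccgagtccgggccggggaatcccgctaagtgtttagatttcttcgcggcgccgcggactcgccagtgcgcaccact
Isg15 held 3 overlapping ISRE matches, the first starting 78 bases before the start, Ifit1 held 2 and Rsad2 held 1, while this Irf1 window held none and 1 GAS match. A second Irf1 window, chr11:53770223-53770522 (not shown), held neither an ISRE nor a GAS match. RefSeq windows were found for 24 of the 33 genes, and 13 of those 24 held an ISRE match, against 3.99% of 27025 genes with windows of the same length; a GAS match was in 5 of 24, against 9.55% of those genes. Isg15 and Ifit1, which had opposite directions, therefore both carried the ISRE letters. A match is a description of sequence, and binding was not measured.

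A core of 11 strongly inducible members was used to count the response per cell (Irf7, Ifit1, Ifit2, Ifit3, Ifit3b, Oasl1, Rsad2, Cmpk2, Isg15, Usp18 and Ifi44), and a cell with a UMI of at least 5 of them is called interferon-high below. In endothelial cells 43.6% of Cre+ and 39.2% of Cre- cells had no UMI of any core gene, in fibroblasts 65.0% and 57.8%, and in macrophages 56.9% and 59.1%. Cells with 1 core gene were the next most frequent in all 3 classes. For all 31 members, cells without any UMI were 1.96% of Cre+ and 2.95% of Cre- endothelial cells, 15.002% and 13.3% of fibroblasts, and 0.652% and 1.17% of macrophages, so nearly every endothelial cell and macrophage showed at least 1 member. Most member UMIs came from outside the core, which summed to 266.5 of 1643 member CPM in Cre+ endothelial cells and 300.1 of 2543 in Cre+ macrophages. A single member detected therefore does not show a response of that cell.

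**Figure D3:**
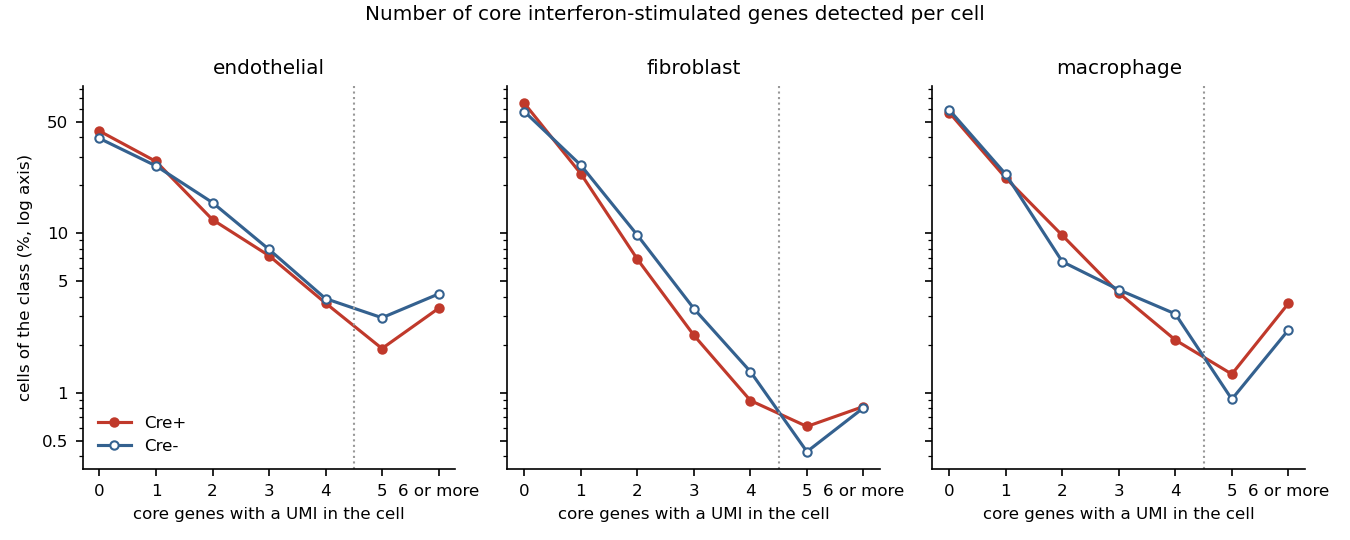
Percent of cells (log axis) by the number of core genes with a UMI, in endothelial cells, fibroblasts and macrophages, with the Cre+ library in filled red and the Cre- library in open blue points; the dotted line marks the limit of 5 for interferon-high cells. All 6 curves decline from 0 to 4 genes and end with a small group at 5 or more.

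Interferon-high cells made up 5.26% of Cre+ endothelial cells (78 cells, 4.18 to 6.52%) and 7.10% of Cre- endothelial cells (53 cells, 5.36 to 9.18%). They made up 1.43% (77 cells, 1.13 to 1.78%) and 1.23% (49 cells, 0.909 to 1.62%) of fibroblasts. In macrophages the shares were 4.92% (83 cells, 3.94 to 6.07%) and 3.37% (26 cells, 2.21 to 4.90%). In all 3 classes the intervals of the libraries overlapped. Interferon-high cells were deeper than others, with median UMIs of 9768 against 4899 in Cre+ fibroblasts and 16084 against 5412 in Cre- fibroblasts, so the share moves with depth. With every cell thinned to 2000 UMIs and the limit of 5 kept, the shares were 0.915% of Cre+ and 0.441% of Cre- endothelial cells (13 and 3 cells). They were 0.411% and 0.129% of fibroblasts and 1.41% and 0.282% of macrophages. The endothelial direction was thus opposite to that in whole cells. With a limit of 3, chosen after the data were seen, the shares were 2.89% of Cre+ and 3.68% of Cre- endothelial cells and 1.26% and 0.870% of fibroblasts. In macrophages they were 3.18% (2.39 to 4.16%) and 1.69% (0.879 to 2.94%). Thinning left out 1569 and 1415 of the kept cells as too shallow.

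**Figure D4:**
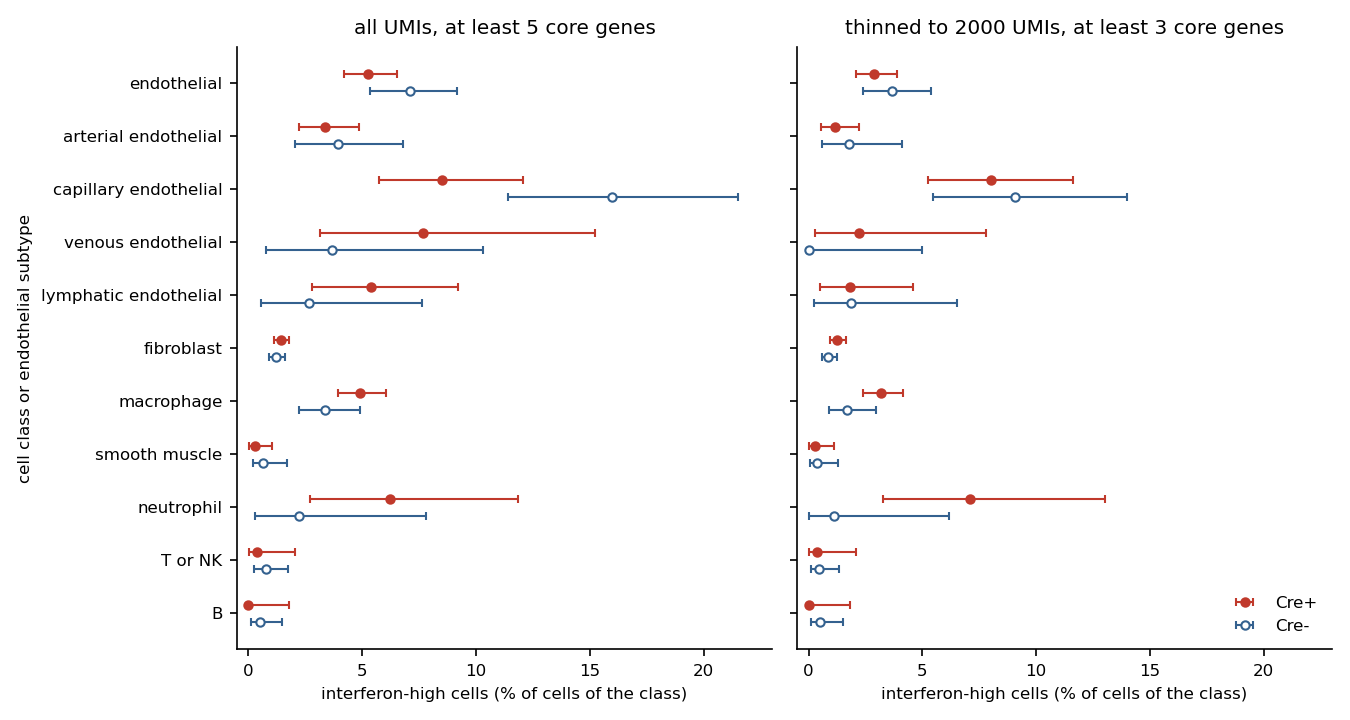
Share of interferon-high cells (percent, with exact 95% binomial intervals) by class or endothelial subtype, with at least 5 core genes in whole cells (left) and at least 3 in cells thinned to 2000 UMIs (right). The limit of 3 was chosen after the data were seen. Filled red is Cre+ and open blue is Cre-, 1 library each. The Cre+ and Cre- intervals overlap in every class shown. The interval of the log2 ratio of the capillary shares at left, -1.68 to -0.15, leaves out 0.

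These few cells held a large part of the core UMIs: 42.9% in Cre+ and 49.3% in Cre- endothelial cells, 40.6% and 24.2% in fibroblasts, and 58.7% and 42.4% in macrophages. That they hold much follows from how they were chosen. The difference between libraries is divided below between them and the rest. The same core genes made that choice, at a limit that moves with depth. The choice therefore also shapes this division and the core values without those cells. The division was not repeated in thinned cells or at other limits. In fibroblasts the summed core level was 173 CPM in Cre+ and 133.5 CPM in Cre-, and of the difference of 39.6 CPM, 38.1 lay in interferon-high cells and 1.57 in all others. In macrophages the core summed to 300.1 and 202 CPM, and of the difference of 98.2 CPM, 90.7 lay in interferon-high cells and 7.50 in the others. These are net sums, in which the lower Isg15 of the other cells offsets other core genes. Divided after the data were seen, the difference in the other cells was -6.77 CPM for Isg15 and 8.35 CPM for the 10 remaining core genes in fibroblasts, and -18.1 and 25.6 CPM in macrophages. In endothelial cells the core sum was lower in Cre+, at 266.5 against 310.8 CPM, with -38.8 of the -44.3 CPM in interferon-high cells. This net sum includes the lower Isg15 and Rsad2 levels given above. Of the 11 core genes 5 were higher in Cre+ (47.4% of all genes) and 6 lower. In the other endothelial cells the difference was -16.2 CPM for Isg15 and 10.7 CPM for the 10 remaining core genes.

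Without interferon-high cells the core median was -0.024 in fibroblasts, against 0.52 with them, and 0.40 in macrophages, against 0.73. In these other cells 5 of 11 measured core genes were higher in Cre+ fibroblasts (41.4% of all genes) and 8 of 10 in macrophages (53% of all genes), 4 of them at least 1.5-fold (7.6%). Rsad2 in fibroblasts stood at -0.36 (-0.83 to 0.11) without them, and 73.8% of its Cre+ UMIs and 30.1% of its Cre- UMIs were in those cells. Ifit3 stood at -0.044 in fibroblasts and -0.18 in macrophages without them, against 0.52 and 0.61 with them. Ifit1 stood at 0.024 in macrophages but at 0.84 (0.62 to 1.06) in fibroblasts. Other members differed outside the interferon-high cells too: Ifi27l2a in fibroblasts stayed at 0.56, Trim30a in macrophages stood at 0.36, and Rsad2 in macrophages at 1.04 (0.66 to 1.44). Isg15 stood at -1.39, -0.72 and -1.53 in endothelial cells, fibroblasts and macrophages without them, and Irf1 at -0.65, -0.73 and -0.40. The lower Isg15 and Irf1 levels in Cre+ were thus found in the many other cells, though not only there. Inside interferon-high cells Isg15 stood at -0.67 in endothelial cells, 0.30 in fibroblasts and -0.62 in macrophages. Of all members, 19 of 30 in fibroblasts (41.4% of all genes) and 24 of 30 in macrophages (53%) were above 0 without the interferon-high cells, with medians of 0.090 against -0.051 for all genes and 0.26 against 0.016. In endothelial cells 19 of 30 were (46.5%), with a median of 0.029 against -0.021. At least 1.5-fold without those cells, 2 endothelial members were higher (4.7% of all genes) and 3 lower (7.13%), 2 fibroblast members higher (3.71%) and 2 lower (7.57%), and 5 macrophage members higher (7.6%) and 1 lower (5.18%).

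**Figure D5:**
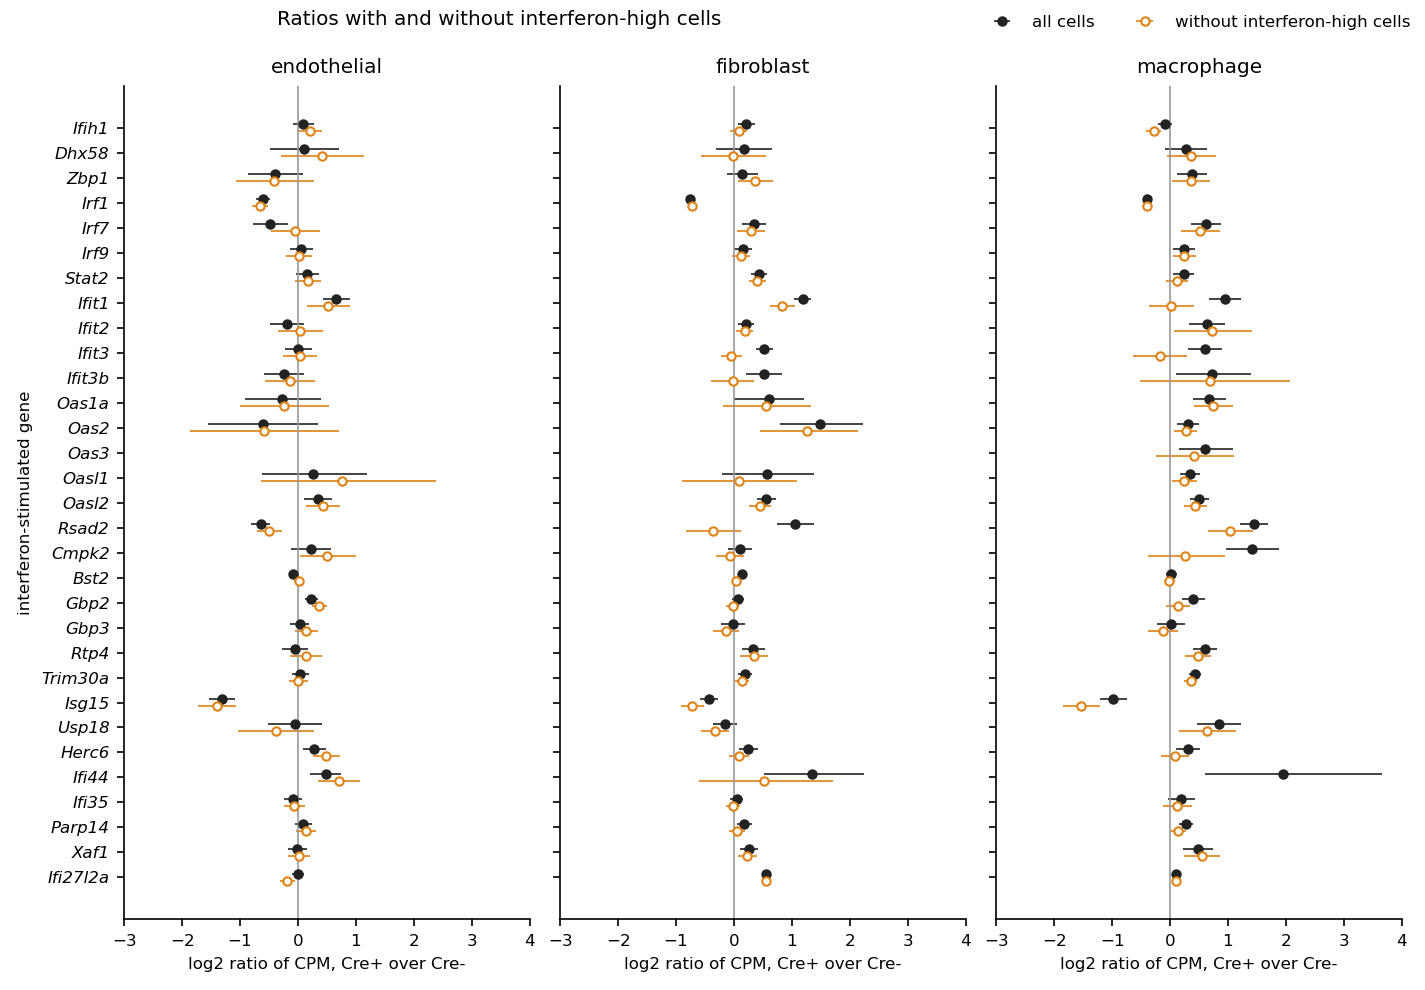
Log2 ratio of CPM, Cre+ over Cre-, of each gene over all cells (filled black) and without interferon-high cells (open orange), with exact 95% intervals of counting error, for genes with at least 20 UMIs. In fibroblasts Ifit3, Ifit3b and Rsad2 lose a ratio above 0, while Isg15 and Irf1 stay below 0 in all 3 panels.

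Genes that took no part in choosing the interferon-high cells were higher in them too. Among the members outside the core, all 18 measured in Cre+ and all 16 in Cre- endothelial cells had higher levels in interferon-high than in other cells of the same library, 18 of 19 and 17 of 17 did in fibroblasts, and 20 of 20 and 20 of 20 in macrophages. Of all genes with at least 50 UMIs, 48.3% in Cre+ and 45.6% in Cre- endothelial cells, 50.1% and 47.7% in fibroblasts, and 42.8% and 42.2% in macrophages were higher in interferon-high cells. Their median log2 ratios were 1.09 and 1.01 in endothelial cells, 3.00 and 2.14 in fibroblasts, and 2.10 and 1.90 in macrophages, whereas the medians of all genes lay between -0.088 and 0.0011. Oasl2 was at 320 CPM in interferon-high and 17.5 CPM in other Cre+ fibroblasts, and at 160 and 12.8 CPM in Cre- fibroblasts. Irf1 was the member below 0, with 110.6 CPM in interferon-high and 137.5 CPM in other Cre+ fibroblasts, and 356.8 and 227.4 CPM in Cre- fibroblasts. Of a further list of interferon pathway genes, 85 of 97 and 79 of 91 were higher in interferon-high endothelial cells, 87 of 100 and 83 of 99 in fibroblasts, and 92 of 104 and 81 of 96 in macrophages. Leading examples were Cxcl10, a chemokine that attracts T cells, at 125 CPM in interferon-high and 6.70 CPM in other Cre+ endothelial cells, Iigp1, a GTPase of the immunity-related family, at 854.7 and 48.5 CPM in Cre+ fibroblasts, and Ms4a4c at 60.7 and 12.9 CPM in Cre+ macrophages.

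Within interferon-high cells Ifit1 was at 1046 CPM in Cre+ and 340.0 CPM in Cre- fibroblasts, Ifit3 at 584 and 154 CPM, and Rsad2 at 256 and 44.3 CPM. In endothelial interferon-high cells Ifit1 was at 319 and 125 CPM and Ifi27l2a at 516 and 281 CPM, while Isg15 was at 118 and 188 CPM. In macrophages they had Cmpk2 at 185 and 50.7 CPM and Gbp2 at 187 and 50.7 CPM, while other members lay close together there, with Bst2 at -0.070, Ifi27l2a at -0.046 and Irf1 at -0.46. These levels are those of 77 and 49 fibroblasts, 78 and 53 endothelial cells and 83 and 26 macrophages. They are a description, since core genes chose the cells and the Cre- cells among them were the deeper ones.

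Endothelial subtypes differed from each other. The arterial class had 15 of 29 members higher in Cre+ (47.5% of all genes), the capillary class 15 of 30 (49.8%), the lymphatic class 14 of 25 (49.2%) and the venous class 16 of 20 (51.5%), with medians of 0.017, 0.0028, 0.048 and 0.67. At least 1.5-fold, 0 arterial members were higher (5.28% of all genes) and 3 lower (7.87%), 3 capillary members higher (6.86%) and 4 lower (8.48%), 10 venous members higher (9.99%) and 0 lower (10.5%), and 5 lymphatic members higher (7.94%) and 3 lower (8.05%). Rsad2 marked capillary cells in both libraries: it was detected in 48.6% of Cre+ and 54.3% of Cre- capillary cells (280.3 and 300.4 CPM), against 1.37% and 3.28% of arterial cells (1.60 and 13.1 CPM). Its ratio was -0.10 (-0.28 to 0.08) in capillary cells, and 329 of 1483 endothelial cells were capillary in Cre+ and 219 of 747 in Cre-; the part of these shares in the lower pooled endothelial level was not tested. In arterial cells Rsad2 rested on 11 and 43 UMIs, and 1 Cre- cell held 62.8% of those of the Cre- library. Isg15 was lower in Cre+ in all 4 subtypes, at 15.3 and 40.3 CPM in arterial, 31.4 and 104.8 CPM in capillary, 34.1 and 45.6 CPM in venous and 21.8 and 33.9 CPM in lymphatic cells, and the venous interval of -1.25 to 0.39 held 0. Interferon-high cells made up 8.51% of Cre+ and 15.98% of Cre- capillary cells and 3.36% and 3.93% of arterial cells. They made up 7.69% and 3.66% of venous cells and 5.38% and 2.68% of lymphatic cells. Rsad2 is itself a core gene, so a marker of capillary cells counts towards their shares. In thinned cells the capillary shares were 2.25% and 1.01% with at least 5 core genes, and 8.04% and 9.09% with at least 3.

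In venous cells the net core difference lay in few cells. The core summed to 404.5 CPM in Cre+ and 127 CPM in Cre- venous cells, and of the difference of 277.2 CPM, 277.4 lay in the interferon-high cells, which numbered 7 and 3. Ifit1 had 101 UMIs in Cre+ and 4 in Cre- venous cells (149.7 and 5.36 CPM), and 88.1% of the Cre+ UMIs were in interferon-high cells. In thinned cells with at least 3 core genes they numbered 2 of 90 and 0 of 72. Ifi27l2a was at 339.3 and 130.0 CPM there, with 91.3% and 91.8% of its UMIs in the 10 cells richest in it. Red cell markers summed to 11343 and 2692 CPM in venous cells and monocyte or dendritic markers to 91.9 and 12.1 CPM; their part in the result was not tested.

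Neutrophils were the class with the largest median ratio, and there most of the net core difference lay outside the interferon-high cells. The core summed to 654.9 CPM in Cre+ and 450.9 CPM in Cre- neutrophils, and of the difference of 204.1 CPM, 29.4 lay in interferon-high cells (8 of 129 cells and 2 of 90) and 174.7 in the others. The interferon-high cells held 49.9% of the Cre+ and 65.9% of the Cre- core UMIs. In thinned cells with at least 3 core genes they numbered 9 of 127 in Cre+ and 1 of 88 in Cre-, and the division was not repeated there. Oasl1, a translation inhibitor of Irf7, was at 103 and 17.1 CPM (2.60, 1.69 to 3.63), Oasl2 at 235 and 71.1 CPM, Gbp2 at 91.4 and 22.8 CPM and Trim30a at 367.2 and 128 CPM; 15 of 22 members were at least 1.5-fold higher (19% of all genes). Ifit1 and Ifit3 were at -0.43 and -0.47, and 95.6% and 89.3% of their Cre- UMIs were in 1 cell each. The Cre+ neutrophils were shallower (median 4253 UMIs against 6639), and the neutrophil markers summed to 165863 CPM in Cre+ and 248343 CPM in Cre-, the monocyte or dendritic markers to 297.9 and 2478 CPM, red cell markers to 404.5 and 9897 CPM and platelet markers to 172.6 and 2.84 CPM; the part of these in the result was not tested.

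In T or NK cells Irf1 had a ratio of 1.01 (0.77 to 1.25), Xaf1 1.33 (0.79 to 1.87) and Isg15 -1.28 (-2.21 to -0.47), and interferon-high cells were 1 of 269 and 5 of 665. In B cells Isg15 had 0 UMIs in Cre+ and 35 in Cre-, and interferon-high cells were 0 of 205 (up to 1.78%) and 3 of 589. Those 3 held 45.5% of the Cre- core UMIs of the class. The log2 ratio of the summed core was 0.21 with them and 1.07 without. In monocyte or dendritic cells (57 and 63 cells) 1 cell of each library was interferon-high, and the Cre+ one held 65.3% of the Cre+ core UMIs of the class. The summed core ratio was 0.78 with these cells and -0.66 without. Over all cells of the class Bst2 was at 147.8 CPM in Cre+ and 452.4 CPM in Cre-, and Ifih1 at 46.0 and 118 CPM. Siglech, a defining gene of plasmacytoid dendritic cells, which are rich in Bst2, was at 52.1 and 183.5 CPM in the same cells, and all 5 markers of that type summed to 212.1 and 362.1 CPM; their part in the result was not tested. In smooth muscle cells the members summed to 300.2 and 295.4 CPM, the lowest total among these classes, with Isg15 at 6.27 and 10.9 CPM and Ifit1 at 10.9 and 4.88 CPM.

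In fibroblasts, markers of other cells stood beside the member ratios: neutrophil markers summed to 20.1 CPM in Cre+ and 101 CPM in Cre-, T or NK markers to 10.6 and 24.8 CPM and B markers to 3.34 and 23.6 CPM. In macrophages the T or NK markers summed to 17.8 and 26.7 CPM and the neutrophil markers to 344.0 and 325.5 CPM, and in endothelial cells the macrophage markers to 123 and 95.7 CPM. The part of these in the results was not tested.

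Of 126 further genes of the interferon pathway, 120 were found. In endothelial cells 48 of 106 measured were higher in Cre+ (median -0.022), in fibroblasts 52 of 108 (-0.010) and in macrophages 83 of 108 (0.16), against the 47.4%, 41.4% and 53.4% of all genes above. The GTPases that interferon gamma induces were higher in 10 of 12, 10 of 11 and 10 of 11. Gbp6 was at 33.9 CPM in Cre+ and 24.1 CPM in Cre- endothelial cells, 10.5 and 6.13 CPM in fibroblasts and 9.81 and 4.06 CPM in macrophages, and Ifi47, another of these GTPases, was at 51.7 and 39.1 CPM in endothelial cells. Of the 3 chemokines Cxcl10 and Cxcl9 went the other way, while Ccl5 was at 7.53 and 5.14 CPM in endothelial cells, a gene named after its value was seen. Cxcl10 was at 17.9 and 50.5 CPM in endothelial cells (-1.50), 8.42 and 20.1 CPM in fibroblasts and 76.5 and 115.7 CPM in macrophages, and Cxcl9 at 38.9 and 80.0 CPM in endothelial cells (-1.04). The genes listed as negative regulators were lower in all 7 measured in endothelial cells, with the suppressors of cytokine signalling Socs3 at 48.2 and 96.6 CPM (-1.003) and Socs1 at 4.61 and 8.53 CPM (-0.89), while Adar and Samhd1 were at -0.016 and -0.11. Antigen presentation genes were lower in 10 of 12 in endothelial cells and higher in 10 of 12 in macrophages; in endothelial cells H2-T23, a non-classical class I molecule, was at 199.2 and 265.1 CPM (-0.41). The kinases Jak1 and Jak2 were at -0.27 and -0.26 in endothelial cells. Tmem173, the adaptor STING of cytosolic DNA sensing, and Tlr3, a receptor of double-stranded RNA, were at 0.24 and 0.23.

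The interferons themselves were scarce. Ifnb1 had 27 UMIs in Cre+ and 28 in Cre- macrophages (1.84 and 3.44 CPM, a ratio of -0.90, -1.72 to -0.088). Ifng had 132 and 192 UMIs in T or NK cells (68.7 and 34.8 CPM, a ratio of 0.98, 0.65 to 1.31). Over all assigned cells Ifng was at 1.94 CPM in Cre+ and 3.01 CPM in Cre- (-0.64, -0.96 to -0.32), a level that moves with the class shares of the libraries. Ifna2, Ifna4, Ifnl2, Ifnl3 and Ifne had 0 UMIs in the assigned cells of both libraries.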

How the data were processed

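Gene by cell counts of UMIs were deposited by the authors, 1 matrix per library, as unnormalized whole numbers; per the file headers the software was Cell Ranger 7.2.0. Seurat and mm10 appear in the submitters' processing notes; no source used here states how introns and strand were counted. Cells were kept from 500 genes upward if mitochondrial UMIs were 10% or less, and Scrublet (scanpy 1.11.5, expected rate 8%) doublets were removed. Its automatic threshold called 0 cells in the Cre- library, so the Cre+ threshold of 0.237 was applied to both libraries once the scores were known, which removed 533 cells (4.77%) and 183 cells (2.10%). A class needed at least 3 of its 8 markers and 2 more than any other class, an endothelial subtype at least 2 markers and 1 more.

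UMIs of a class were summed per library and divided by the class total. Ratios carry exact 95% Clopper-Pearson intervals of the UMI split and shares exact binomial intervals; the functions were tested on simulated data. With 1 library per group no test was run. Thinning drew 2000 UMIs per cell without replacement. Named genes were all members, and from the pathway list, in each gene group, up to 2 with the largest ratio in endothelial and in all assigned cells (at least 100 UMIs), plus the 5 with the largest ratio of interferon-high over other cells per class (at least 50 UMIs). Members, lists and markers were chosen with earlier results of these data known. Coordinates come from GENCODE vM21 and promoters from RefSeq, both on GRCm38. Reads shared by near-identical genes cannot be divided here, which touches Ifit3 with Ifit3b and the Oas genes, and 7 members overlap another counted gene (Dhx58, Irf7, Irf9, Oasl1, Rtp4, Usp18 and Ifi35). Analysis used Python 3.11.15, numpy 2.4.6, scipy 1.17.1, pandas 2.3.3 and edgeR 4.0.16 for TMM factors. Alternatives were cell filters, doublets, cell weights, TMM, thinning, gate margins, UMI minimums, core limits and lists without single members.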

Additional observations from a re-analysis of the deposited data

Results flagged for a closer look

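For 7 genes the ratio of Cre+ over Cre- lay above 0 in one class and below 0 in another, with counting intervals on opposite sides of 0. The difference between the classes was not tested, and each ratio rests on 1 library per group. Irf1 was at 1.76 in neutrophils and -0.75 in fibroblasts. Rsad2 was at 1.45 in macrophages and -0.64 in endothelial cells pooled over subtypes, whose Rsad2 levels differed widely. Irf7 was at 1.16 in neutrophils and -0.48 in endothelial cells. Gbp2 was at 2.01 in neutrophils and -0.50 in smooth muscle cells. Bst2 was at 0.46 in smooth muscle cells and -1.61 in monocyte or dendritic cells. Ifih1 was at 0.21 in fibroblasts and -1.36 in monocyte or dendritic cells. Stat2 was at 0.44 in fibroblasts and -0.44 in smooth muscle cells.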

How the results depend on the processing

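No paired analysis was possible because each group holds 1 library and no replicate can be left out. Log2 ratios of the summed members (Cre+ over Cre-) and counts of members higher are given where they moved. The main sums were -0.053 (-0.085 to -0.021) in endothelial, 0.17 in fibroblast, 0.17 in macrophage, 0.44 in T or NK and 1.02 in neutrophil cells. Among the subtypes they were -0.037 (-0.086 to 0.012) in arterial, 0.61 in venous and 0.00042 in lymphatic cells. Under a cell filter of 1000 genes or more and 5% mitochondrial UMIs or less, 9 members were higher in smooth muscle and the sum was -0.076 there and -0.0016 in B cells, against 0.023 and 0.24 with the main filter. A filter of 200 genes or more and 20% or less put the venous sum at 0.39. With cells thinned to 2000 UMIs, members higher numbered 5 in smooth muscle, 15 in T or NK, 5 in B, 11 in neutrophils and 5 in venous cells, where fewer genes reach the UMI minimum. The thinned sums were 0.0097 in endothelial, 0.13 in fibroblast, -0.067 in smooth muscle, 0.35 in T or NK, 0.60 in neutrophil, 0.083 in arterial, 0.42 in venous and 0.24 in lymphatic cells. With the limit of 5 core genes kept in thinned cells, the log2 ratio of interferon-high shares was 1.05 in endothelial, 1.67 in fibroblast, 2.32 in macrophage, 1.16 in capillary and -1.03 in lymphatic cells, on few cells (13 and 3, 17 and 4, 23 and 2, 7 and 2, 1 and 1). In whole cells at 5 these ratios were -0.43, 0.22, 0.55, -0.91 and 1.01, so the endothelial, capillary and lymphatic directions turned. Among these ratios the counting interval left out 0 for fibroblasts (0.059 to 3.71) and macrophages (0.30 to 5.45) when thinned. In whole cells it left out 0 for capillary cells (-1.68 to -0.15). With a limit of 3, chosen after seeing the data, the log2 ratio of shares was -0.033 in lymphatic cells, against 1.01 in whole cells at 5, and -0.18 in capillary cells, against -0.91. The intervals of these shares are wide and the other 4 kept their direction. The larger gate margin put smooth muscle at 0.11. With every cell weighted equally the sums were -0.016 in endothelial, -0.16 in smooth muscle, 0.57 in neutrophil, 0.042 in arterial and 0.12 in lymphatic cells. TMM gave 0.21 in fibroblast, 0.30 in T or NK and 1.16 in neutrophil cells. Without interferon-high cells the sums were 0.00097 in endothelial, 0.083 in fibroblast, 0.063 in macrophage, 0.37 in B, 1.24 in neutrophil, 0.11 in arterial and 0.16 in venous cells. A minimum of 50 UMIs left 7 members higher in B cells. Without Ifi27l2a and Bst2 the sums were -0.012 in fibroblast, 0.22 in macrophage, -0.12 in smooth muscle, 0.086 in B and 0.17 in lymphatic cells, so the fibroblast sum turned on these genes. With interferon-high cells set at 4 or 6 core genes, their share of core UMIs was 54.2% or 34.0% in Cre+ and 59.9% or 39.7% in Cre- endothelial cells, 47.1% or 33.8% and 33.4% or 19.98% in fibroblasts, and 66.1% or 52.7% and 60.0% or 36.2% in macrophages. At 4 core genes the log2 ratio of fibroblast shares was -0.15, against 0.22 at 5, and of lymphatic shares -0.076, against 1.01; the filter of 1000 genes and 5% put the fibroblast ratio at -0.16. Except where the wording above names a construction, the cause was not tested. Keeping doublets moved none of the 29 values run, and without Isg15 none of the 11 counts of members higher run moved. Depth limits the detection of low genes per cell, and animals within a library cannot be told apart.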

Other observations

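Cells not described above also held interferon-high cells. Mesothelial cells, the flat lining of serous surfaces, had 4 of 27 in Cre+ and 6 of 15 in Cre-, with median depths of 16266 and 16876 UMIs, and at 2000 UMIs with at least 3 core genes 1 of 27 and 3 of 15. Schwann cells, the glia of peripheral nerves, had 0 of 58 and 2 of 65. Among cells outside the gates there were 10 of 616 and 23 of 910.

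Over all assigned cells together, Ifitm1, a membrane protein that blocks viral fusion, was at 30.9 CPM in Cre+ and 8.08 CPM in Cre-, and Ms4a4c was at 8.07 and 19.4 CPM. Tlr7, an endosomal receptor of single-stranded RNA, was at 34.2 and 20.9 CPM, and Ifngr2, a chain of the interferon gamma receptor, at 44.96 and 61.9 CPM. Iigp1 was at 109.8 and 65.0 CPM, B2m at 1191 and 1025 CPM, H2-K1 at 854.0 and 736.3 CPM and Ptpn6, a phosphatase that damps cytokine signalling, at 32.1 and 39.4 CPM. The classes made up different shares of the libraries, and these pooled levels move with that.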
